A study of Mus musculus with 12 samples.

Results

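The genes described here are 10 components of the protein folding system of the endoplasmic reticulum (ER): the chaperones and chaperone partners Hspa5, Hsp90b1, Hyou1, Sdf2l1 and Manf, the folding enzymes and folding factors Pdia4, Pdia6 and Creld2, the degradation factor Herpud1, and the transcription factor Xbp1. They were taken by gene symbol from a table of 38087 genes, each of the 10 matched exactly 1 row, and all 10 were among the 14170 genes that passed the filter on low counts. Liver RNA of germ-free C57BL/6J males aged 13 to 16 weeks, which lack a microbiota in both groups, was sequenced after depletion of ribosomal RNA. The ghrelin group (n = 6 libraries) had been given rat ghrelin under the skin at 10 µg per mouse once a day for 5 days, and the PBS group (n = 6 libraries) phosphate-buffered saline on the same schedule. Injections and samples carry the label ZT 2, counted in hours from the start of the light phase. Ghrelin is a stomach hormone that stimulates feeding and growth hormone release.

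Secreted and membrane proteins fold in the ER, and hepatocytes, which supply most plasma proteins, carry a large load of them. When unfolded proteins build up, the unfolded protein response is started by the sensors Ern1 (IRE1), Atf6 and Eif2ak3 (PERK). Active Ern1 removes a short intron from Xbp1 mRNA, after which the XBP1 protein, together with ATF6, raises transcription of chaperone and degradation genes. Counts over the exons of Xbp1 hold the spliced and the unspliced mRNA together, so splicing is not measured here. The comparison asks whether transcripts of this system differ between ghrelin-treated and PBS-treated livers.

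A promoter window of 250 bases before to 50 bases after the annotated start was found in RefSeq (GRCm38.p6) for 8 of the 10 genes, and Hyou1 and Manf had none in the table used. The windows were searched on both strands for the ER stress response element (ERSE, CCAAT and CCACG with 9 bases of any kind between them), the related ERSE-II (ATTGG and CCACG with 1 base between them), the unfolded protein response element (UPRE, TGACGTGG) and the core ACGTG. The ERSE is bound by ATF6 together with the CCAAT-binding factor NF-Y, and it was first defined in mammalian promoters of such chaperone genes, Hspa5 and Hsp90b1 among them. The 5 stretches that hold an ERSE or ERSE-II are shown so that the elements can be compared; each runs 5′ to 3′ on the strand of the gene, with the element in capitals and up to 25 bases on either side that lie outside the GENCODE M21 gene.
Hspa5, chr2:34772025-34772043, plus strand: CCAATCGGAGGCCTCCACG
Hsp90b1, chr10:86705510-86705681, minus strand: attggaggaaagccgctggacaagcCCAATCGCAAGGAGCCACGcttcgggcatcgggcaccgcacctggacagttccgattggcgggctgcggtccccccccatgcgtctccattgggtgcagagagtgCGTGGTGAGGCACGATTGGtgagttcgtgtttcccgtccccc
Pdia6, chr12:17266466-17266534, plus strand: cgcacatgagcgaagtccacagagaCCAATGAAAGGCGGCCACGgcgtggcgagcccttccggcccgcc
Creld2, chr15:88819495-88819563, plus strand: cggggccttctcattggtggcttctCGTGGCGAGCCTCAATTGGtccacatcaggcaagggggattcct
Herpud1, chr8:94386352-94386412, plus strand: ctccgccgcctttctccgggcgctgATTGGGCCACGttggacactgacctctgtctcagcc

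Positions are counted from the RefSeq start. An ERSE was present in 4 of the 8 windows, against 39 of all 32851 windows (0.119%). Hsp90b1 held 2 of them, the first in the orientation of the gene, 212 to 194 bases before the start, and the second on the opposite strand, 107 to 89 bases before it. In Hspa5 the element lay 65 to 47 bases before the RefSeq start, which is 120 bases downstream of the GENCODE start, so that in GENCODE the element falls inside the annotated gene. In Pdia6 it lay 98 to 80 bases, and in Creld2, on the opposite strand, 126 to 108 bases. Herpud1 was the 1 window with an ERSE-II, 52 to 42 bases before the start, an element found in 12 windows (0.0365%) in all. The UPRE letters were in none of the 8 windows and in 0.676% of all windows. ACGTG was in 3 of the 8, Hspa5, Pdia6 and Herpud1, and in 19.6% of all windows; the match of Herpud1 overlaps its ERSE-II. The windows of Sdf2l1, Pdia4 and Xbp1 held none of the 4 motifs. The RefSeq start of Pdia4 lies 82 bases upstream of its GENCODE start. Its window therefore ended before the GENCODE start, and the bases between were not searched. A match describes letters, not occupancy.

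No gene of the 10 passed the threshold between ghrelin and PBS. With the quasi-likelihood test of edgeR and Benjamini-Hochberg adjustment over 14170 genes, 0 of the 10 had an adjusted p under 0.05, where 15 of all genes (0.106%) did. DESeq2 called 0 of the 10 and 204 of the 11146 genes to which it gave an adjusted p (1.83%), and limma-voom called 0 of the 10 and 16 of all genes (0.113%). At an unadjusted p under 0.05, 5 of the 10 were higher with ghrelin (Hsp90b1, Hyou1, Sdf2l1, Pdia6 and Creld2) and 0 were lower, against 6.44% of all genes higher and 6.94% lower. The log2 fold change, ghrelin over PBS, was positive for 8 of the 10, against 7087 of the 14170 genes tested, and its median was 0.26, against 0.00 over all genes tested. The 2 negative values were those of Herpud1 and Xbp1. The other 8 genes were correlated with each other across the libraries (Pearson's r of 0.70 to 0.99), so these counts are not counts of independent genes. Ghrelin and PBS libraries overlapped in all 10 genes, and 0.826% of all genes had groups without overlap. Counts in these genes are from a whole tissue, where fewer cells of a type and less RNA per cell cannot be told apart.

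**Figure D1:**
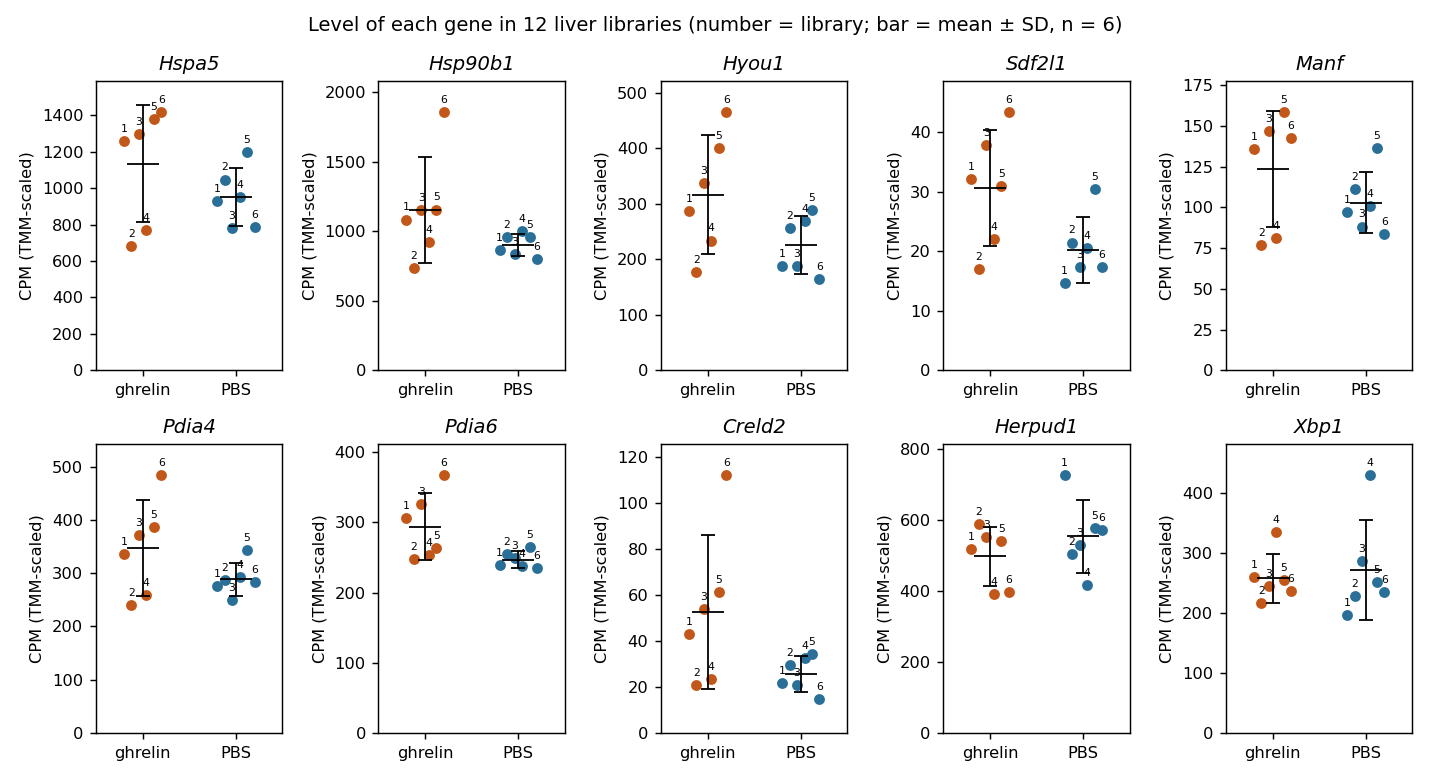
CPM (counts scaled to library size, with the trimmed mean of M values) of the 10 genes in each library, with ghrelin libraries in orange on the left, PBS libraries in blue on the right, numbers naming the library, and black bars giving mean ± SD (n = 6 per group). Ghrelin 2 lies low and ghrelin 6 high for most of the chaperones, and the groups overlap in every panel.

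Hspa5 encodes BiP, the Hsp70 chaperone of the ER lumen, which also holds the sensors inactive. It had 682 CPM in the lowest, 1281 in the median and 1419 in the highest ghrelin library, against 781, 943 and 1198 CPM in the PBS libraries. Of the 6 ghrelin libraries 4 lay above every PBS library and 2, ghrelin 2 (682 CPM) and ghrelin 4 (772 CPM), lay below every PBS library. Hspa5 had a log2 fold change, ghrelin over PBS, of 0.26 (SE 0.17, 95% confidence interval -0.11 to 0.63, adjusted p = 0.544 by edgeR).

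Hsp90b1, the ER member of the Hsp90 family (GRP94), had 737, 1118 and 1859 CPM as lowest, median and highest ghrelin value, against 800, 910 and 1002 CPM with PBS. The PBS libraries were close together, whereas the ghrelin libraries reached on both sides of them: 4 lay above the highest PBS library and 1 below the lowest. For Hsp90b1 the log2 fold change was 0.35 (SE 0.16, interval 0.0050 to 0.70, adjusted p = 0.366 by edgeR), and 0.16 without ghrelin 6, which had 1859 CPM. Hyou1 (GRP170), an Hsp70-like protein that exchanges the nucleotide of BiP, ran from 177 over a median of 312 to 465 CPM with ghrelin, against 165, 222 and 289 CPM with PBS. All but 1 of the ghrelin libraries exceeded the PBS median, and 3 exceeded the highest PBS library. Hyou1 differed by 0.49 on the log2 scale (SE 0.21, interval 0.05 to 0.93, adjusted p = 0.324 by edgeR).

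Sdf2l1 is a partner of BiP and of its ER-resident J-domain cochaperones, and was the least abundant of the 10 per length. It had 17.0, 31.6 and 43.4 CPM as lowest, median and highest value with ghrelin, against 14.6, 18.9 and 30.5 CPM with PBS. In 4 ghrelin libraries the level was above that of PBS 5, the highest PBS library, and the other 2 lay within the PBS range. Sdf2l1 differed by 0.59 on the log2 scale (SE 0.21, interval 0.15 to 1.04, adjusted p = 0.262 by edgeR). Manf encodes an ER-resident and secreted factor that binds BiP. Its lowest, median and highest values were 76.7, 139 and 159 CPM with ghrelin, against 84.0, 98.9 and 136 CPM with PBS. As for Hspa5, ghrelin 2 and ghrelin 4 were below every PBS library, while 3 ghrelin libraries were above every one; for Manf the log2 fold change was 0.26 (SE 0.18, interval -0.11 to 0.64, adjusted p = 0.540 by edgeR).

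Pdia4 and Pdia6 are protein disulfide isomerases, enzymes that form and rearrange disulfide bonds in folding proteins. For Pdia4 the lowest, median and highest values were 241, 354 and 485 CPM with ghrelin, against 249, 285 and 344 CPM with PBS, with a log2 fold change of 0.27 (SE 0.14, interval -0.04 to 0.57, adjusted p = 0.438 by edgeR). The fold change of Pdia4 was 0.15 on the log2 scale without ghrelin 6. For Pdia6 the lowest, median and highest values were 248, 285 and 368 CPM with ghrelin, against 234, 244 and 265 CPM with PBS, the smallest spread of the 10 genes among PBS libraries. All 6 ghrelin libraries were above the PBS median of Pdia6 and 3 were above its highest PBS library, with a log2 fold change of 0.25 (SE 0.09, interval 0.06 to 0.45, adjusted p = 0.271 by edgeR).

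Creld2, an ER-resident protein induced by ER stress, had the largest fold change and the largest spread of the 10. It had 20.7, 48.5 and 112 CPM as lowest, median and highest ghrelin value, against 14.6, 25.6 and 34.5 CPM with PBS. Ghrelin 1, 3, 5 and 6, with 43.0, 54.0, 61.4 and 112 CPM, were above every PBS library, and ghrelin 2 and ghrelin 4, with 20.7 and 23.7 CPM, were within the PBS range. Creld2 differed by 1.04 on the log2 scale (SE 0.34, interval 0.31 to 1.77, adjusted p = 0.229 by edgeR), and 0.67 without ghrelin 6. The means were 52.5 ± 33.5 CPM with ghrelin and 25.6 ± 7.79 CPM with PBS (SD, n = 6 each).

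Herpud1 encodes a membrane protein with a ubiquitin-like domain that organises the degradation of ER proteins. It had 390, 528 and 586 CPM as lowest, median and highest value with ghrelin, against 417, 549 and 726 CPM with PBS. The 2 lowest of all 12 libraries were ghrelin 4 (390 CPM) and ghrelin 6 (397 CPM), and the highest was PBS 1. Herpud1 differed by -0.16 on the log2 scale (SE 0.13, interval -0.43 to 0.12, adjusted p = 0.631 by edgeR), and -0.06 without PBS 1. Xbp1 had 216, 250 and 334 CPM with ghrelin, against 196, 243 and 430 CPM with PBS. Its highest library in each group was number 4, with 334 CPM in ghrelin 4 and 430 CPM in PBS 4. The log2 fold change of Xbp1 was -0.07 (SE 0.16, interval -0.41 to 0.27, adjusted p = 0.885 by edgeR), and 0.11, with the sign turned, without PBS 4.

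**Figure D2:**
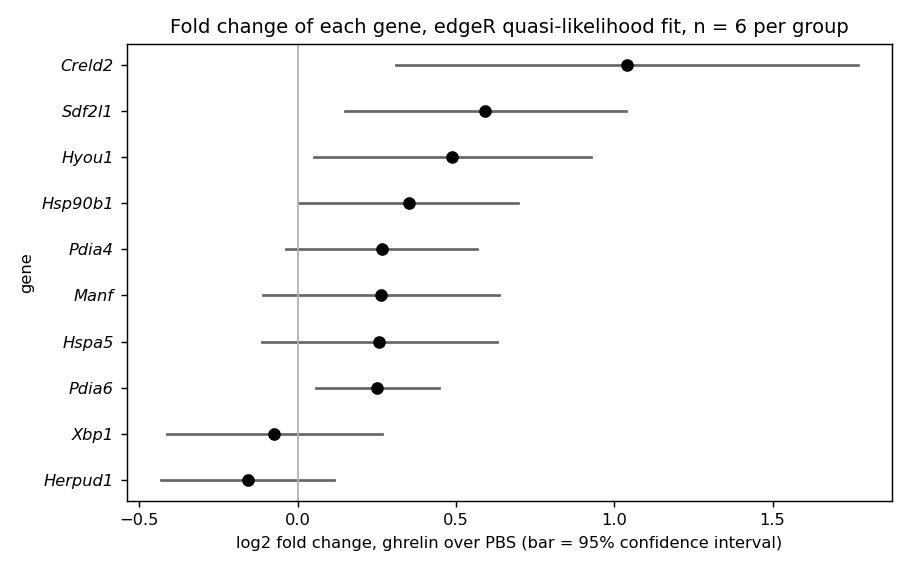
Log2 fold change, ghrelin over PBS, of the 10 genes (points) with 95% confidence intervals (bars) from the edgeR fit on 6 libraries per group. Creld2 is highest at 1.04 and Herpud1 lowest at -0.16; intervals of Creld2, Sdf2l1, Hyou1, Hsp90b1 and Pdia6 lie above 0 before adjustment for the 14170 genes tested.

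The libraries were ordered alike by the 8 chaperones and folding factors other than Xbp1 and Herpud1, a division made after the values were seen. Ghrelin 6 was the highest of the 12 libraries for 7 of the 8, and ghrelin 5 for the other, Manf. Ghrelin 3 was among the 4 highest for all 8, ghrelin 5 for 7 and ghrelin 1 for 5. In contrast ghrelin 2 was among the 4 lowest for all 8 and the lowest of all for 4. Among PBS libraries, PBS 5 was among the 4 highest for 4 of the 8, PBS 3 and PBS 6 among the 4 lowest for 7 each, and PBS 1 for 6. The 10 genes together took 0.303% to 0.561% of all counts in ghrelin libraries, lowest in ghrelin 2 and highest in ghrelin 6, against 0.319% to 0.418% in PBS libraries. Ghrelin 2 also had the lowest total count, 15775059, while ghrelin 6 had 20528989. The next lowest totals were those of ghrelin 1 (16553401) and ghrelin 5 (16920864), which stood high for these genes. Ghrelin 4 had the highest ghrelin total, 21457627, and was among the 4 lowest for 3 of the 8. PBS 3 and PBS 6, which stood low, had 21402351 and 21900513. The part of depth in this order was not tested.

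**Figure D3:**
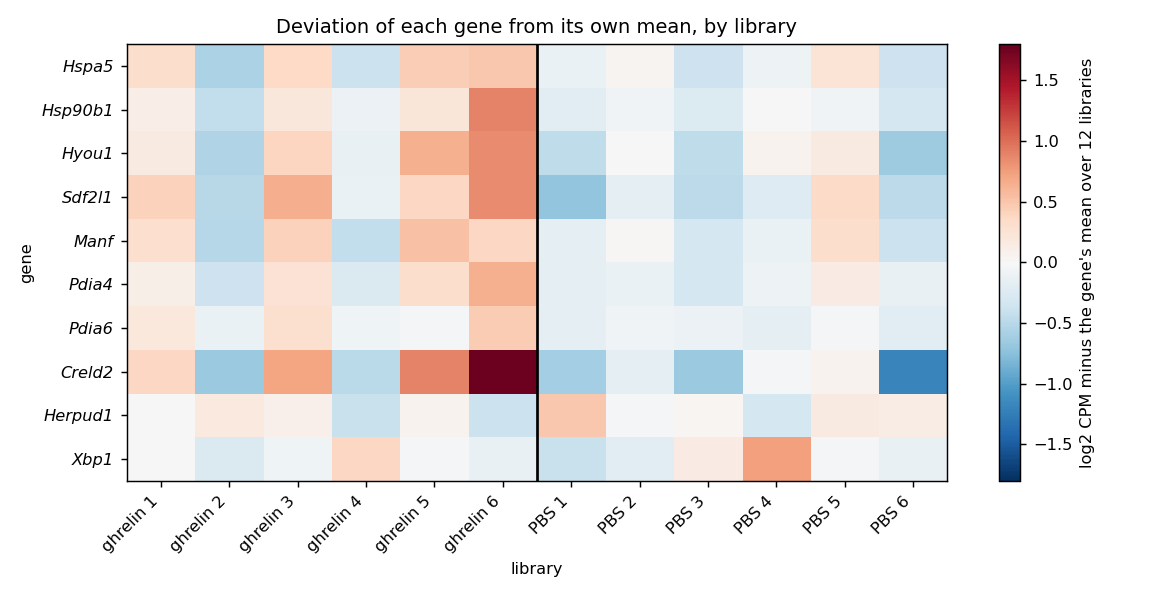
Log2 CPM of each of the 10 genes (rows) in each library (columns, ghrelin left of the line, PBS right) minus that gene's mean over the 12 libraries, with red above and blue below the mean. The first 8 rows share a pattern across columns, with ghrelin 6 highest for 7 of them, and Herpud1 and Xbp1 do not follow it.

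Within a group, libraries spread more with ghrelin than with PBS for all 8. The SD of log2 CPM of Hspa5 was 0.46 with ghrelin and 0.24 with PBS, that of Hsp90b1 0.44 and 0.13, and that of Creld2 0.91 and 0.47 (n = 6 each, ghrelin before PBS). For Pdia6 it was 0.23 with ghrelin and 0.07 with PBS. Between the highest and the lowest ghrelin library Creld2 differed 5.43-fold, against 2.37-fold between PBS libraries. Without ghrelin 6 the ghrelin SD of Hsp90b1 was 0.28. Xbp1 was the reverse case, with an SD of 0.21 with ghrelin and 0.39 with PBS, and 0.20 in PBS libraries without PBS 4; Herpud1 had 0.25 with ghrelin and 0.26 with PBS. These differences in spread are given as a description, with no test. Ranked by dispersion among the genes tested, Creld2 stood at the 98.5th percentile, Hyou1 at the 90.9th, Sdf2l1 at the 90.7th and Hspa5 at the 86.0th, whereas Pdia6 stood at the 53.6th.

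The covariation of the genes was tested for all 45 pairs over the 12 libraries. All 28 pairs among the 8 chaperones and folding factors were positively correlated, with Pearson's r of 0.70 to 0.99 and Spearman's rho of 0.71 to 0.99, and each passed by both measures (largest adjusted permutation p 0.0128 for r and 0.0207 for rho, over the 45 pairs). Hspa5 and Manf had the highest value, r = 0.99 and rho = 0.97 (raw permutation p = 1e-05 for both, the smallest that 100000 permutations can give; adjusted p = 6.43e-05 and 1.12e-04), and r = 0.99 without the 2 libraries farthest from the median of Hspa5. Creld2 and Hyou1 had r = 0.97 and rho = 0.99 (adjusted permutation p = 6.43e-05 and 1.12e-04), and r = 0.97 without the 2 farthest libraries. The lowest of the 28 was that of Pdia6 and Manf, with r = 0.70, rho = 0.74 and r = 0.65 without the 2 farthest libraries. Over all 28 pairs r without those libraries was 0.58 to 0.99. After the mean of each group was subtracted, r of the 28 pairs was 0.67 to 0.99 with a median of 0.88, and each of these r was positive. Within the ghrelin libraries alone r was 0.66 to 0.998 with a median of 0.91, and within the PBS libraries alone 0.45 to 0.98 with a median of 0.81 (n = 6 each, with no test). The lowest within PBS were those of Hsp90b1 with Pdia6 (r = 0.45), Pdia4 with Pdia6 (0.52) and Hsp90b1 with Pdia4 (0.56).

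Xbp1 was not detectably correlated with these genes. Its r with the 8 genes was -0.17 to 0.11 and its rho 0.04 to 0.31, and 0 of the 8 pairs passed (smallest adjusted permutation p 0.742 for r). Without the 2 libraries farthest from the median of 1 gene of the pair, r of Xbp1 was -0.24 to 0.38. In pairs where these libraries were PBS 4 and ghrelin 4, r was 0.18 (Pdia4) to 0.38 (Sdf2l1), so the r over 12 libraries depends in part on them. Herpud1 had r of -0.51 to -0.05 and rho of -0.48 to -0.10 with the 8 genes, and again 0 pairs passed (smallest adjusted permutation p 0.137 for r). Without the 2 farthest libraries r of Herpud1 with the 8 genes was -0.52 to 0.22. Xbp1 and Herpud1 were negatively correlated with each other, with r = -0.69 (raw permutation p = 0.0136, adjusted 0.0211) and rho = -0.62 (raw permutation p = 0.0348, adjusted 0.0540). Without the 2 libraries farthest from the median of Xbp1 r was -0.46, so this relation rests in part on those libraries and by rho it did not pass.

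**Figure D4:**
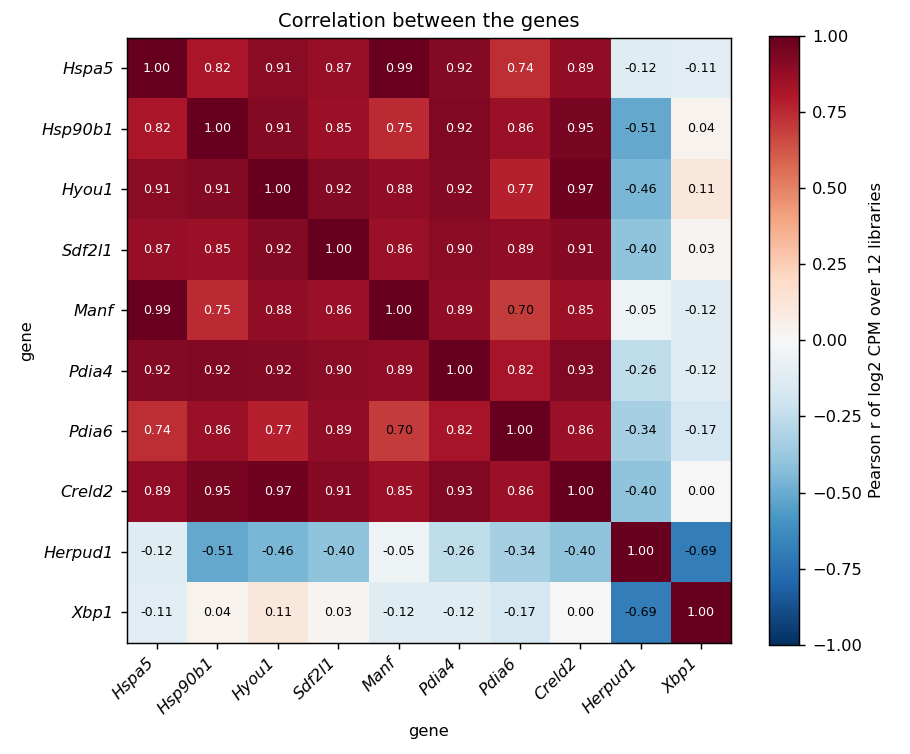
Pearson's r of log2 CPM over the 12 libraries for each pair of the 10 genes. The block of 8 chaperones and folding factors has r between 0.70 and 0.99, while the rows of Herpud1 and Xbp1 hold values from -0.69 to 0.11 with other genes.

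The 8 genes closest to the group in pattern were sought among 11410 other genes with a mean of at least 1 CPM, by Pearson's r to the mean standardised log2 CPM of the 10 genes over 12 libraries, with group means subtracted. They were Pdia3 (r = 0.96), Dnajb11 (0.95), Ostc (0.94), Pgm3 (0.94), Cad (0.94), Nans (0.93), Calr (0.91) and Txndc5 (0.91). Pdia3 and Txndc5 are disulfide isomerases, Dnajb11 a J-domain partner of BiP, Calr the lectin chaperone calreticulin and Ostc a subunit of oligosaccharyltransferase. Pgm3 and Nans make precursors of protein glycans, and Cad starts pyrimidine synthesis. These r values describe the libraries, share their depth scaling and carry no test. Nans had 9.48 to 16.4 CPM with ghrelin, against 8.54 to 10.4 CPM with PBS (log2 fold change 0.48, SE 0.11, adjusted p = 0.121 by edgeR).

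Levels per length, as RPKM (CPM divided by the exon length in kilobases, from GENCODE M21), placed 3 genes on top. Herpud1 had 213 ± 35.7 RPKM with ghrelin and 237 ± 43.9 RPKM with PBS, Hspa5 269 ± 76.4 and 225 ± 37.7 RPKM, and Hsp90b1 286 ± 94.7 and 224 ± 19.9 RPKM (SD, n = 6 each, ghrelin before PBS). These 3 levels did not differ beyond their spread in PBS libraries. Pdia4 followed with 145 ± 37.5 RPKM with ghrelin and 120 ± 13.0 RPKM with PBS, below Hsp90b1 by more than the sum of their PBS SDs. Xbp1 had 79.2 ± 12.5 and 83.4 ± 25.6 RPKM and Pdia6 78.5 ± 12.8 and 66.0 ± 3.14 RPKM, each not separated from its neighbour above. Hyou1 (43.8 ± 14.7 and 31.2 ± 7.16 RPKM), Manf (35.1 ± 10.1 and 29.2 ± 5.37 RPKM), Creld2 (38.5 ± 24.5 and 18.7 ± 5.70 RPKM) and Sdf2l1 (27.6 ± 8.82 and 18.3 ± 5.02 RPKM) formed the low end, below Pdia6 beyond the spread in PBS and not separated from neighbour to neighbour. Hsp90b1 stood above Hspa5 and Herpud1 with ghrelin and below both with PBS, within that spread; with the longest transcript as length it stood above Hspa5 in PBS too, at 280 RPKM against 259 RPKM.

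All 10 are protein-coding genes in GENCODE M21 on GRCm38, the assembly also called mm10. Hspa5 (ENSMUSG00000026864) spans chromosome 2, 34771970 to 34777547, and Hsp90b1 (ENSMUSG00000020048) chromosome 10, 86690209 to 86705509, on the minus strand. Hyou1 (ENSMUSG00000032115) and Manf (ENSMUSG00000032575) both lie on chromosome 9, at 44379490 to 44392369 and 106838312 to 106891979. Creld2 (ENSMUSG00000023272) spans chromosome 15, 88819646 to 88826683, Sdf2l1 (ENSMUSG00000022769) chromosome 16, 17130138 to 17132383, and Xbp1 (ENSMUSG00000020484) chromosome 11, 5520659 to 5525893. Exons of Manf overlap those of Rbm15b on the same strand and of Dcaf1 on the other, exons of Pdia6 overlap Atp6v1c2 on the other strand, and exons of Hsp90b1 and Pdia4 overlap non-coding genes. No source used here says how reads shared by such genes were assigned, which leaves the counts of these 4 genes uncertain.

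Other genes of the ER and of the unfolded protein response were taken from 5 lists, of which 96 genes were measured. By edgeR 0 of the 96 passed the threshold. At an unadjusted p under 0.05, 18 were higher with ghrelin (18.8%) and 5 lower (5.21%), against the 6.44% and 6.94% of all genes. The median log2 fold change was 0.06. Of these genes Pdia3, Dnajb11, Ostc, Calr and Txndc5 had r of 0.91 to 0.96 to the mean pattern of the 10 genes. These counts are therefore not counts of independent genes, and the lists were chosen with earlier results of these data known. A further pair of lists held reported decay substrates of Ern1 and heat shock genes of other compartments, which brought the genes measured to 115. By DESeq2 1 of the 111 that had an adjusted p passed, Atf4 (0.901%, against 1.83% of all genes). The sensors had no common direction, with 4 of 10 positive and a median of -0.01. Ern1 had a log2 fold change of 0.00 (SE 0.12), Atf6 of -0.16 (SE 0.11), its relative Atf6b of 0.07 (SE 0.12) and Eif2ak3 of -0.27 (SE 0.17). Of the proteases that cut ATF6, Mbtps1 had 0.08 (SE 0.05) and Mbtps2 -0.22 (SE 0.08). Creb3l3, a liver transcription factor of the ER membrane, had 253 ± 39.2 CPM with ghrelin and 211 ± 17.0 CPM with PBS (SD, n = 6 each; log2 fold change 0.26, SE 0.10, adjusted p = 0.271 by edgeR), Creb3 0.05, Creb3l2 -0.20 and Traf2, which binds Ern1, -0.03.

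Other ER chaperones and folding enzymes had a positive log2 fold change in 20 of 25, with a median of 0.15, and 11 higher and 2 lower at an unadjusted p under 0.05. Erp29, an ER folding factor, had 34.6 ± 4.42 CPM with ghrelin and 27.9 ± 2.61 CPM with PBS (log2 fold change 0.31, SE 0.09, adjusted p = 0.179 by edgeR). Fkbp11, a prolyl isomerase, differed by 0.59 on the log2 scale (SE 0.21), and Dnajb11 by 0.37 (SE 0.14). The lower ones were Ero1l, an oxidase that recharges disulfide isomerases (log2 fold change -0.27, SE 0.09), and Dnajb9, a BiP cochaperone that restrains Ern1 and a known target of XBP1. Dnajb9 had 22.75 to 52.3 CPM with ghrelin, against 40.5 to 65.1 CPM with PBS (log2 fold change -0.43, SE 0.17, adjusted p = 0.3005 by edgeR). Dnajb11 and Dnajb9 are named after their values were seen.

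In ER-associated degradation 10 of 19 were positive with a median of 0.00. Edem2, which selects misfolded glycoproteins, had 58.4 ± 9.58 CPM with ghrelin and 46.1 ± 6.23 CPM with PBS (log2 fold change 0.34, SE 0.11, adjusted p = 0.219 by edgeR), and Ube2j1, a ubiquitin-conjugating enzyme, had -0.11 (SE 0.06). Derl3, a Derlin of the degradation channel, had 21.9 CPM in ghrelin 6, against 0.611 to 4.21 CPM in the other ghrelin libraries and 0.786 to 2.58 CPM in PBS libraries. Its log2 fold change of 1.66 (SE 0.67, adjusted p = 0.302 by edgeR) was 0.34 without ghrelin 6. In translocation, glycosylation and ER export 27 of 32 measured genes were positive, against 7087 of 14170 genes tested, with a median of 0.07. Ostc of this list followed the pattern of the 10 genes. The smallest p were those of oligosaccharyltransferase subunits, Ddost at 0.21 on the log2 scale (SE 0.07), Rpn1 at 0.23 (SE 0.09) and Rpn2 at 0.13 (SE 0.06); Kdelr3 was below the count filter.

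**Figure D5:**
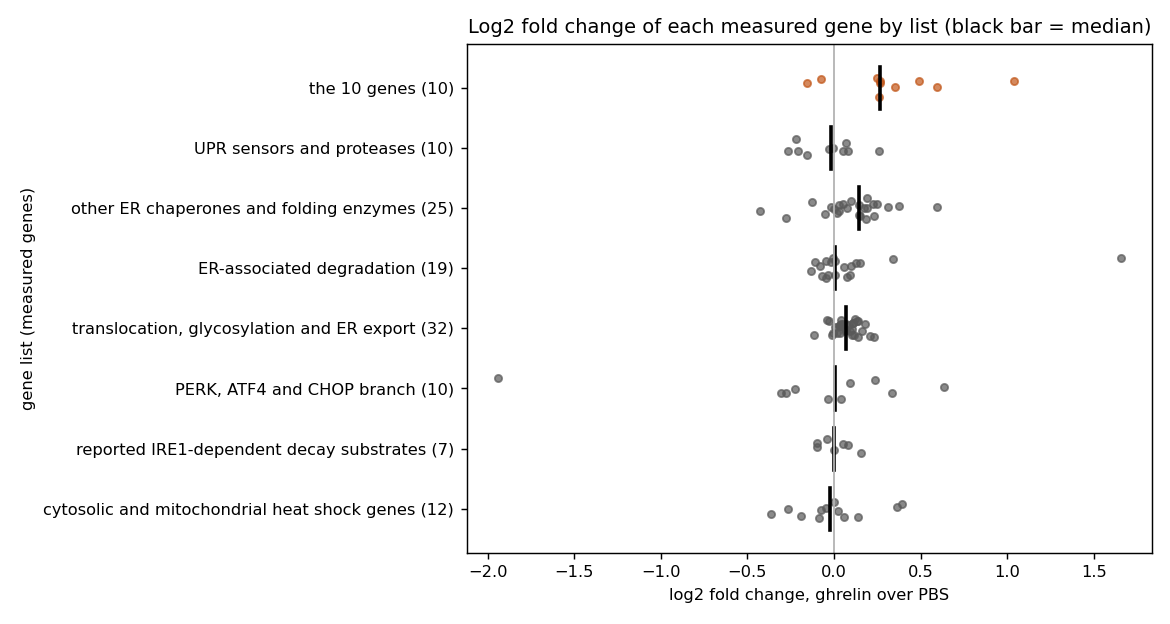
Log2 fold change, ghrelin over PBS, of every measured gene of the 8 lists (points, with the number measured in parentheses), the 10 genes in orange at the top and black bars at the medians. The medians are 0.26 for the 10 genes, 0.15 for other chaperones and folding enzymes and between -0.02 and 0.07 for the remaining lists.

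The branch of Eif2ak3, ATF4 and CHOP had 5 of 10 positive and a median of 0.00. At an unadjusted p under 0.05 by edgeR 0 were higher and 2 lower, against 6.44% and 6.94% of all genes. Atf4, the transcription factor translated when Eif2ak3 is active, had 70.7 ± 5.94 CPM with ghrelin and 87.2 ± 8.86 CPM with PBS (SD, n = 6 each), with all ghrelin libraries (61.9 to 75.7 CPM) below all PBS libraries (76.3 to 99.8 CPM). Atf4 differed by -0.30 on the log2 scale (SE 0.08, adjusted p = 0.139 by edgeR). DESeq2 gave it an adjusted p of 0.0211, and over all alternatives the adjusted p was 0.0211 to 0.253. Atf3, a stress-induced transcription factor, had 0.536 to 0.988 CPM with ghrelin, against 0.6005 to 10.6 CPM with PBS, and its log2 fold change of -1.94 (SE 0.66) was -0.67 without PBS 5. Ppp1r15a, the phosphatase subunit that reverses the action of Eif2ak3, had -0.27 (SE 0.16). Ddit3, which encodes CHOP, is named after its value was seen and had a log2 fold change of 0.04. Transcripts reported in cultured cells to be cut by active Ern1 had 3 of 7 positive with a median of 0.00, among them Hgsnat (-0.10, SE 0.05), Col6a1 (0.15, SE 0.17) and Sparc (0.05, SE 0.07). Of the 7, Pmp22 (3.12 CPM with ghrelin, 3.35 CPM with PBS) and Scara3 (1.32 and 1.35 CPM) were low. Pmp22 and Scara3 are named after their values were seen. Which liver cells these transcripts came from was not tested. Heat shock genes of the cytosol and mitochondria had 5 of 12 positive with a median of -0.02; Hsp90aa1 differed by 0.36 on the log2 scale (SE 0.20), Hspb1 by 0.39 (SE 0.20) and Dnajb1 by -0.26 (SE 0.11).

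An ERSE was also found in the windows of 33 genes other than the 10, of which 14 were measured. Of these 11 had a positive log2 fold change, with a median of 0.14, against 7087 of 14170 genes positive. By edgeR 0 passed the threshold. At an unadjusted p under 0.05, 3 (Calr, Derl3 and Ero1lb) were higher, against 6.44% of all genes, and that of Derl3 rests on ghrelin 6 (log2 fold change 0.34 without it). Of the 14, 6 stand in the lists above: those 3 and Canx (log2 fold change 0.02, SE 0.05), Dnajc3 (0.15, SE 0.11) and Syvn1 (0.13, SE 0.13). Alg12, a glycosyltransferase gene of the ER, had 0.21 (SE 0.14), while Hnrnpa3, which encodes a nuclear RNA-binding protein, had -0.08 (SE 0.06). ERSE-II was found in 11 other genes, 7 of them measured, 5 positive and 2 negative, with a median of 0.04 and 0 past the threshold. At an unadjusted p under 0.05 by edgeR 3 were higher, against 6.44% of all genes: Dnajb11, Krtcap2 (0.18, SE 0.08) and Nucb1 (0.13, SE 0.05). The others were Lgalsl (0.04, SE 0.16), Rcl1 (0.02, SE 0.09), Rbm39 (-0.09, SE 0.06) and Lrif1 (-0.25, SE 0.13). All genes named for their promoter were named after their values were seen.

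Total counts were 15775059 to 21457627 in ghrelin libraries, against 18746597 to 22302533 in PBS libraries (exact two-sided permutation p = 0.0671), and the lowest count of any of the 10 genes in a library was 271, for Sdf2l1. Hepatocyte markers were abundant in all libraries, with a summed level of 71560 to 87510 CPM with ghrelin, against 75600 to 107500 CPM with PBS. The sum is mostly Alb. Cps1, a urea cycle enzyme named after its values were seen, had 8106 to 9552 CPM with ghrelin, against 9593 to 10860 CPM with PBS, without overlap (log2 fold change -0.19, SE 0.06, adjusted p = 0.214 by edgeR), and its part in the results above was not tested. Plasma cells, which are rich in ER chaperones, had 5 of 10 listed markers measured, with a summed level of 8.41 to 38.7 CPM with ghrelin, against 6.97 to 23.0 CPM with PBS. Without Derl3, which is also a degradation gene, the sums were 5.25 to 16.8 CPM with ghrelin and 6.18 to 21.4 CPM with PBS. Ghrelin 6 had 1.34 CPM of Igj and 3.65 CPM of Igkc, the highest of all libraries, and 11.3 CPM of Ighm, the highest with ghrelin. PBS 2 had 1.27, 3.44 and 16.2 CPM of these. Prdm1 was at 0.576 CPM in ghrelin 6 and 1.51 CPM in ghrelin 2. Tnfrsf17 had 8 counts in all 12 libraries, Pou2af1 55 and Irf4 88, and Mzb1 and Igha were not found under these symbols. The part of plasma cells in ghrelin 6 was not tested. Markers of pancreatic acinar cells, which are likewise rich in ER, were below the count filter except Cela1, at 16.9 to 23.0 CPM with ghrelin and 12.9 to 23.0 CPM with PBS, and 4 of the 8 listed were at 0. Summed levels of Kupffer cell markers were 198 to 288 CPM with ghrelin and 151 to 289 CPM with PBS, of sinusoidal endothelial markers 332 to 364 and 331 to 367 CPM, of stellate cell markers 343 to 422 and 363 to 410 CPM, and of cholangiocyte markers 4.33 to 5.97 and 3.33 to 5.30 CPM. The 2 measured neutrophil markers summed to 0.792 to 4.02 CPM with ghrelin, against 3.40 to 8.15 CPM with PBS. The single measured B cell marker was at most 0.867 CPM with ghrelin and 0.861 CPM with PBS, and the 5 T cell markers were below the filter.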

How the data were processed

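The files hold whole-number read counts per gene, described by the authors in the name of the deposited table as raw exon counts, with 1 column for each of 12 libraries. Libraries came from 250 ng of RNA with a stranded kit and 12 PCR cycles, and were sequenced paired-end over 125 cycles, per the labels' protocols. STAR 2.4.0i and the build mm10 are named in the submitters' processing notes. No source used here names the counting tool, its strand setting or its treatment of reads that map more than once.

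Groups and numbers come from the library titles. No label says that each library is a separate animal, so p-values measure the spread between these samples, which may be technical. Between any 2 libraries of 1 group, chi-square per degree of freedom was 10.8 to 44.3, more than counting noise, which does not show that they came from different animals. The 10 genes and all lists were chosen with earlier results of these data known.

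With edgeR 4.0.16, genes were kept by filterByExpr (at least 10 counts, 15 in total), scaled by TMM and compared by the two-sided quasi-likelihood F test in R 4.3.3, with Benjamini-Hochberg adjustment and a threshold of 0.05. The SE is the absolute log2 fold change over the square root of F. CPM uses the TMM factors, and log2 CPM a prior count of 2. DESeq2 1.42.0, limma 3.58.1, other scalings and filters, a replicate block and the removal of each library were alternatives. Correlations used 100000 permutations. Of each pathway list (not of the cell type markers) the text names the measured genes with the 3 smallest p, all sensors, and the 8 genes of most similar pattern; other named genes are said to be so. Protein sequences were not used here. PCR copies are not independent molecules, so depth bounds counting error only. The edgeR fit was run on simulated counts, and the other steps were not tested in this way.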

Additional observations from a re-analysis of the deposited data

Results flagged for a closer look

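Among 92 combinations of a named gene and a group, 6 had 1 library far from the others, with a gap to the nearest library above Dixon's 95% critical value for 6 samples on the CPM scale; chance alone gives about 1 in 20 groups. Hsp90b1 was at 1860 CPM in ghrelin 6, with the next ghrelin library at 1160 CPM (gap 0.626 of the range, and 0.513 on the log2 scale). Xbp1 was at 334 CPM in ghrelin 4, with the next at 260 CPM (0.628, and 0.575 on the log2 scale). Derl3 was at 21.9 CPM in ghrelin 6, with the next at 4.21 CPM (0.831, and 0.475 on the log2 scale). Rpn2 was at 216 CPM in ghrelin 5, with the next at 191 CPM (0.626, and 0.602 on the log2 scale). Atf3 was at 10.6 CPM in PBS 5, with the next at 2.14 CPM (0.847, and 0.575 on the log2 scale). Nans was at 10.4 CPM in PBS 5, with the next at 8.97 CPM (0.766, and 0.748 on the log2 scale), the only one of the 6 above the limit on both scales.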

How the results depend on the processing

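Under all 21 alternatives 0 of the 10 genes were called. The 9 genes other than Xbp1 kept the sign of their log2 fold change, and Xbp1 turned to 0.11 without PBS 4, with -0.16 to 0.11 over the removal of each library. Adjusted p was lowest for Sdf2l1, at 0.118 by DESeq2, with 0.118 to 0.418 over its alternatives. The number of the 10 at an unadjusted p under 0.05 was 8 without ghrelin 2 and 7 without ghrelin 4. It was 3 without ghrelin 3, ghrelin 5, ghrelin 6, PBS 1, PBS 3 or PBS 6, 3 with robust estimation and 4 by limma-voom. The number over all genes was 1896 of 14170 by edgeR on all libraries. It was 1896 of 14287 without ghrelin 2, 2177 of 14282 without ghrelin 4 and 1536 of 14304 without ghrelin 3. Over all genes the number called was 15, and 63 without a filter on low counts, 204 by DESeq2 and 9 with robust estimation; without 1 library it was 0 (without ghrelin 1 or ghrelin 3) to 32 (without ghrelin 4). The genes of the 7 lists had 1 call by DESeq2 (Atf4) and 0 under every other alternative. The cause of these differences was not tested. With the replicate number as a block in edgeR 58 genes were called and 0 of the 10. Of the 10, 3 then had an unadjusted p under 0.05 (Sdf2l1, Pdia6 and Creld2), against 2097 of 14170 genes. The SE of Xbp1 was 0.09 with the block and 0.16 without it. Same-numbered libraries had correlations of -0.08 to 0.27 of their deviations from the group means. In 3 of 6 ghrelin libraries the best correlated PBS library was that of the same number. The main fit took no pairs, and whether the numbers mark pairs or a batch was not tested. With the longest transcript as length, levels with ghrelin and with PBS were 121 and 127 RPKM for Xbp1, which then stood above Pdia4 in PBS, 135 and 114 RPKM for Pdia6, 55.0 and 45.8 RPKM for Manf and 64.3 and 45.8 RPKM for Hyou1. Within-group SDs of Sdf2l1, Pdia4 and Manf in PBS were 0.22, 0.09 and 0.16 without PBS 5, against 0.36, 0.15 and 0.25 with it, and that of Xbp1 with ghrelin was 0.11 without ghrelin 4.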
